A study of Mus musculus with 30 samples.

Results

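The 10 genes described here, Treml1, Itga2b, F2rl2, Pf4, Ppbp, Clu, Rab27b, Slc24a3, Rgs10 and Gucy1a1, encode platelet surface proteins, granule contents, proteins of granule release and ion transport, and signalling proteins. The genes were chosen with earlier results of these data known, and their probes were found by gene symbol in the array's platform annotation. Each gene was carried by 1 probe, and they are 10 of 13027 features (genes, or probes with no single gene). All 10 had values in enough samples to be tested, as did 6515 features in all. Arrays with 2 colours gave their levels in leukocytes from the peripheral blood of DBA/2 mice, an inbred strain, with 3 or 4 samples, harvested independently, in each of 4 groups. In 4 samples the mice were untreated. The other groups received cyclophosphamide, an alkylating chemotherapy drug, at 83 mg per kg by intraperitoneal injection, and blood was taken 1 day (4 samples), 2 days (4 samples) or 5 days (3 samples) later.

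Platelets are fragments of bone marrow megakaryocytes that circulate without a nucleus and carry messenger RNA made before their release. They bind collagen and fibrinogen through surface receptors, are activated by thrombin, and release chemokines, chaperones and clotting factors from alpha granules and small molecules from dense granules. Nitric oxide from the vessel wall holds them at rest through cyclic GMP. A leukocyte preparation can hold platelets that were not removed, and several of these genes are also active in leukocytes or vessel wall cells. The labels name the cells as leukocytes and state no platelet count.

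Every value below is the deposited log ratio of the blood sample (Cy5) over pooled bone marrow cells (Cy3). The labels call that pool untreated under cell type and treated with 83 mg per kg cyclophosphamide under treatment. It was taken here as the same pool in every column. If it differed between groups, the differences below would include a change of the reference. The base of the logarithm was taken as 2 and is not named in the sources used here, so each difference printed as log2 would be in natural log units if the base were e. A positive ratio means a larger share of the blood RNA than of the marrow RNA, and levels of different genes are not compared. Each group was set against another with limma, a linear model fitted over all 6515 features and 15 samples. A feature was called at a Benjamini-Hochberg adjusted p under 0.05. Each column held values for 5314 to 9398 of the 13443 probes, or 39.5% to 69.9%, and technical replicates of a sample correlated across probes at r between 0.829 and 0.957. In bulk RNA, fewer cells of a type and less RNA per cell cannot be told apart.

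At day 1 after cyclophosphamide, 6 of the 10 genes were higher than in untreated blood and 0 were lower. These were Treml1, Itga2b, F2rl2, Clu, Slc24a3 and Rgs10. Over all features, 2.29% were called higher and 2.32% lower in that comparison. Since the genes were chosen with earlier results of these data known, their counts and medians beside those of all features are a description, not a test. The median difference of the 10 genes was 1.35 on the log2 scale, against 0.03 over all tested features. At day 2, 0 of the 10 were called higher, where 4.83% of features were, and 1 gene, Gucy1a1, was lower, where 7.84% of features were. At day 5, F2rl2 alone was higher and 0 were lower, beside 0.261% of features called higher and 0.829% called lower. The median differences of the 10 genes were 0.54 at day 2 and 0.81 at day 5, against 0.06 and 0.00 over all tested features. After quantile normalization, which forces all columns to 1 distribution, the medians of the 10 genes were 0.53 at day 1, -0.0044 at day 2 and 0.44 at day 5. In a moderated F test over the 3 comparisons with untreated blood, 7 of the 10 genes were called, as were 22.7% of features. Pf4, Ppbp and Rab27b were not called, with adjusted p of 0.13, 0.67 and 0.788.

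**Figure D1:**
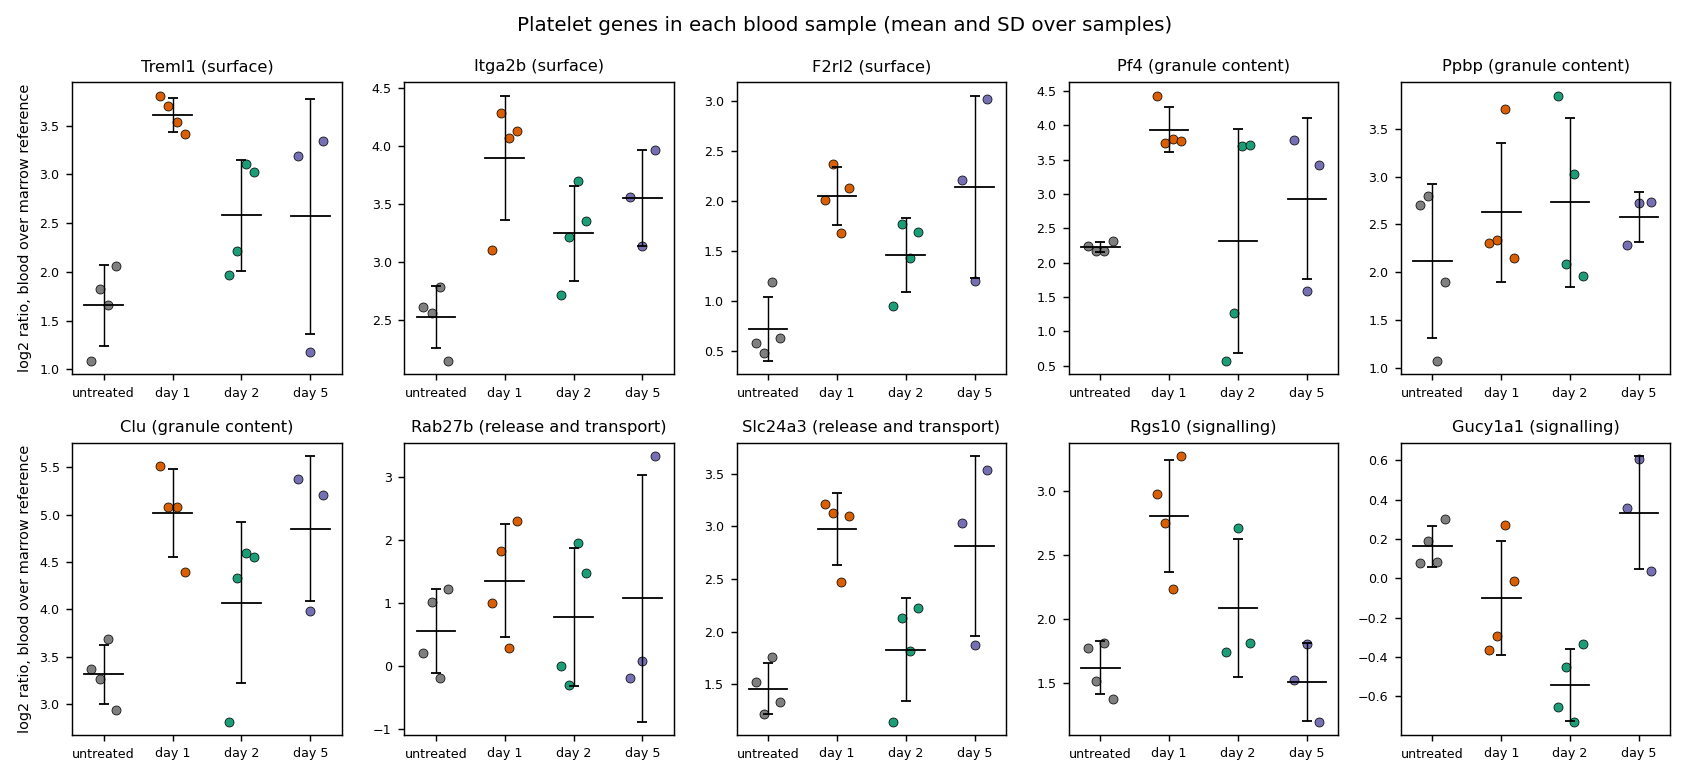
Log2 ratio of blood over the marrow reference (vertical axis) for the 10 genes in each sample, by group; points are samples (mean of 2 technical replicates), lines the mean and bars the SD. In 7 panels, all but Ppbp, Rab27b and Gucy1a1, the 4 day 1 samples lie above all untreated samples.

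Treml1 encodes TLT-1, a receptor of the alpha granule membrane that reaches the platelet surface on activation. In untreated blood its log2 ratio was 1.09, 1.83, 1.66 and 2.06 in replicates 1 to 4. At day 1 it was 3.81, 3.70, 3.53 and 3.41, at day 2 it was 1.97, 2.21, 3.11 and 3.02, and at day 5 it was 3.19, 1.18 and 3.35. All day 1 samples exceeded all untreated ones, and day 5 replicate 2 lay within the untreated range. The difference at day 1 was 1.96 ± 0.39 (SE, limma adjusted p = 0.0159), which made it the largest of the 10. At days 2 and 5 Treml1 differed from untreated blood by 0.92 ± 0.39 (adjusted p = 0.142) and 0.91 ± 0.42 (adjusted p = 0.28).

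Itga2b encodes integrin alpha IIb, which with integrin beta 3 forms the platelet fibrinogen receptor. Untreated samples had log2 ratios of 2.62, 2.57, 2.79 and 2.15. The day 1 samples had 3.11, 4.29, 4.07 and 4.13, the day 2 samples 2.72, 3.22, 3.70 and 3.36, and the day 5 samples 3.56, 3.14 and 3.97. Both the day 1 and the day 5 samples lay wholly above the untreated ones, while day 2 replicate 1 did not. At day 1 the difference was 1.37 ± 0.26 (adjusted p = 0.0133), at day 2 it was 0.72 ± 0.26 (adjusted p = 0.0857) and at day 5 it was 1.03 ± 0.28 (adjusted p = 0.0932).

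F2rl2 encodes the thrombin receptor PAR3, which in mouse platelets helps thrombin to cut PAR4. Its log2 ratio was 0.58, 0.47, 1.18 and 0.63 in untreated blood. At day 1 it was 2.00, 2.37, 1.68 and 2.13, at day 2 it was 0.95, 1.77, 1.42 and 1.68, and at day 5 it was 2.20, 1.20 and 3.02. Day 1 and day 5 samples lay above all untreated samples, day 5 replicate 2 by the least. The difference was 1.33 ± 0.30 at day 1 (adjusted p = 0.025) and 1.42 ± 0.33 at day 5 (adjusted p = 0.0479), and 0.74 ± 0.30 at day 2 (adjusted p = 0.127). The day 5 call was kept in only 2 of the 15 fits that left out 1 sample, with adjusted p up to 0.166.

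Itga2b and F2rl2 are 2 of the 6 genes called higher at day 1, and the 250 bases before their annotated starts are shown as examples. The bases are from RefSeq with build GRCm38.p6, 5′ to 3′ on the gene's own strand. Capitals mark hexamers read by megakaryocyte transcription factor families, AGATAA or TGATAA for GATA factors and AGGAAG or CGGAAG for ETS factors, searched on both strands over 250 bases before to 50 after the start. The Itga2b window is chr11:102469884-102470133 on the minus strand, and the F2rl2 window is chr13:95696670-95696919 on the plus strand.
Itga2b: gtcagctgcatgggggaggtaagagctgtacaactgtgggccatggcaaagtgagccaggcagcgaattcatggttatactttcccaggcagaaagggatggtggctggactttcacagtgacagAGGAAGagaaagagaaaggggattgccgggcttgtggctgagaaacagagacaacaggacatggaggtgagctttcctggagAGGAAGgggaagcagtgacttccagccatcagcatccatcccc
F2rl2: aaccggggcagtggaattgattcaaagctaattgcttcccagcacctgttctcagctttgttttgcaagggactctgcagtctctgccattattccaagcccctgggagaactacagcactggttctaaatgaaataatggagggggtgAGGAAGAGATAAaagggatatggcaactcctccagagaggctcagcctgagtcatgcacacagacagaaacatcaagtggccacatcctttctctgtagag
Itga2b held 2 ETS hexamers, 125 and 43 bases before the start, and no GATA hexamer in this window. In F2rl2, an ETS hexamer 101 bases before the start was directly followed by a GATA hexamer at 95. A RefSeq promoter was found for 8 of the 10 genes, with 10 windows in all, since Slc24a3 and Gucy1a1 had 2 starts each. A GATA hexamer was in 2 of the 10 windows and an ETS hexamer in 5, against 18.6% and 46.5% of all 32851 promoter windows. Windows of Treml1, Ppbp and Rgs10 held none of the 4 hexamers, and nor did the first windows of Slc24a3 and Gucy1a1. Treml1, Rgs10 and Slc24a3 were also called higher at day 1. These matches describe letters in the window and are not evidence of binding.

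Among granule contents, Pf4 encodes platelet factor 4, an alpha granule chemokine. Its log2 ratio was 2.25, 2.17, 2.17 and 2.32 in untreated blood. At day 1 it was 4.43, 3.74, 3.81 and 3.77, at day 2 it was 0.57, 1.27, 3.69 and 3.72, and at day 5 it was 3.78, 1.59 and 3.41. All day 1 samples exceeded all untreated samples, day 2 replicates 1 and 2 and day 5 replicate 2 lay below them, and the rest of days 2 and 5 lay above. The day 1 difference of 1.71 ± 0.61 was not called (adjusted p = 0.116), and the differences at days 2 and 5 were 0.08 ± 0.61 (adjusted p = 0.946) and 0.70 ± 0.65 (adjusted p = 0.62). A fit on day 1 and untreated samples alone, which leaves out the spread of days 2 and 5, gave the same difference with an adjusted p of 0.000652. Over all 28 alternatives the adjusted p ran up to 0.388, and 4 passed the threshold.

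Ppbp encodes the chemokine pro-platelet basic protein, from which a neutrophil attractant is cut. Its gene is the neighbour of Pf4, on the same strand of chromosome 5. The log2 ratio was 2.70, 2.80, 1.07 and 1.90 in untreated blood, 2.31, 2.34, 3.70 and 2.15 at day 1, 3.85, 2.09, 3.03 and 1.97 at day 2, and 2.28, 2.73 and 2.73 at day 5. Each treated group overlapped the untreated one. The difference at day 1 was 0.51 ± 0.45 (adjusted p = 0.559), at day 2 0.61 ± 0.45 (adjusted p = 0.41) and at day 5 0.46 ± 0.48 (adjusted p = 0.665). Day 2 replicate 1 had the highest Ppbp value of all samples and the lowest Pf4 value. Over the 15 samples the Pf4 and Ppbp values had a Pearson r of -0.129. This describes samples that fall into 4 groups and have a reference taken here as shared.

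As neighbours on 1 strand whose values did not move together, the pair is shown with the 250 bases before each start, from the same RefSeq table and marked in the same way. The Ppbp window is chr5:90768268-90768517 and the Pf4 window is chr5:90772185-90772434, both on the plus strand.
Ppbp: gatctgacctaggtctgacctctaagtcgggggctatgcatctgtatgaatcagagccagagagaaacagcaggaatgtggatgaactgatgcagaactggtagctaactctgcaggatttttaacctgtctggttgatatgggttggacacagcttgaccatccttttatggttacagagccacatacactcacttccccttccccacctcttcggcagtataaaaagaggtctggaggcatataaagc
Pf4: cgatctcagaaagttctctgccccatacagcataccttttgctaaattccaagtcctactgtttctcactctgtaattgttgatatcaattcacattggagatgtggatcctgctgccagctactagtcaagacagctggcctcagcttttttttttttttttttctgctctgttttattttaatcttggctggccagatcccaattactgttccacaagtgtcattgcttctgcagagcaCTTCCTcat
The Pf4 window held 1 ETS hexamer, read on the other strand, with its first base 9 bases before the start, and 1 GATA hexamer that begins 36 bases after the start and so is not printed. No hexamer of either family was in the Ppbp window.

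**Figure D2:**
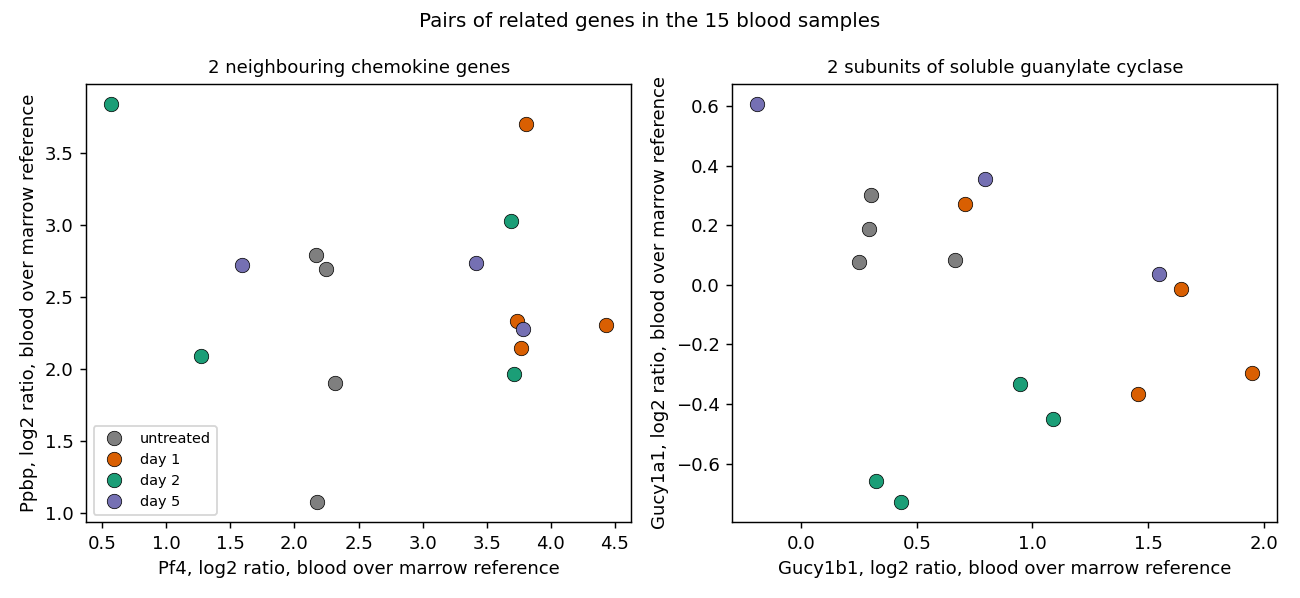
Log2 ratios of 2 pairs of genes in the 15 blood samples, coloured by group; each point is a sample. Left, Ppbp (vertical) against Pf4 (horizontal); right, Gucy1a1 (vertical) against Gucy1b1 (horizontal). The point at the upper left of the left panel is day 2 replicate 1, with 3.85 for Ppbp and 0.57 for Pf4.

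Clu encodes clusterin, a secreted chaperone and inhibitor of complement that alpha granules store. Untreated samples had log2 ratios of 3.37, 3.27, 3.69 and 2.94. Day 1 samples had 5.51, 5.08, 5.08 and 4.39, day 2 samples 2.82, 4.33, 4.59 and 4.55, and day 5 samples 5.37, 3.98 and 5.20. The day 1 and day 5 samples all exceeded the untreated ones, and day 2 replicate 1 was the lowest sample of all. Clu differed from untreated blood by 1.70 ± 0.38 at day 1 (adjusted p = 0.0223), 0.76 ± 0.38 at day 2 (adjusted p = 0.217) and 1.54 ± 0.41 at day 5 (adjusted p = 0.083).

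Of the release and transport genes, Slc24a3 encodes a potassium-dependent sodium and calcium exchanger. Its log2 ratio was 1.52, 1.21, 1.76 and 1.33 in untreated blood. At day 1 it was 3.21, 3.13, 2.47 and 3.10, at day 2 it was 1.14, 2.13, 1.82 and 2.22, and at day 5 it was 3.03, 1.87 and 3.54. Day 1 and day 5 samples lay above all untreated samples, and day 2 samples ran from below the untreated range to above it. The difference at day 1 was 1.52 ± 0.31 (adjusted p = 0.0159), at day 2 0.37 ± 0.31 (adjusted p = 0.473) and at day 5 1.36 ± 0.33 (adjusted p = 0.06).

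Rab27b encodes a small GTPase that docks dense granules for release. Its log2 ratio ran from 0.29 to 2.30 at day 1, -0.30 to 1.95 at day 2 and -0.19 to 3.33 at day 5, against -0.20 to 1.22 in untreated blood. The groups overlapped throughout, and day 5 replicate 3 was the highest of the 15 samples. None of its differences was called, at 0.79 ± 0.70 for day 1 (adjusted p = 0.56), 0.22 ± 0.70 for day 2 (adjusted p = 0.873) and 0.51 ± 0.76 for day 5 (adjusted p = 0.778). Rab27b had a value in 25 of the 30 columns, the fewest of the 10 genes.

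Rgs10, a signalling gene, encodes a protein that speeds GTP hydrolysis by G protein alpha subunits and so damps receptor signals. Untreated samples had log2 ratios of 1.78, 1.52, 1.81 and 1.38. Day 1 samples had 2.97, 2.75, 2.24 and 3.27, day 2 replicates 2 to 4 had 1.74, 2.71 and 1.81 with no value in replicate 1, and day 5 samples had 1.53, 1.80 and 1.20. All day 1 samples exceeded all untreated and all day 5 samples. Rgs10 differed from untreated blood by 1.19 ± 0.24 at day 1 (adjusted p = 0.0175), 0.47 ± 0.26 at day 2 (3 samples, adjusted p = 0.269) and -0.11 ± 0.26 at day 5 (adjusted p = 0.864). Its 2 technical replicates differed by up to 1.81, and with technical replicate 2 alone the day 1 difference was 0.64 (adjusted p = 0.278).

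Gucy1a1 encodes the alpha 1 subunit of soluble guanylate cyclase, the nitric oxide receptor that makes cyclic GMP. Its log2 ratio was 0.08, 0.19, 0.08 and 0.30 in untreated blood. At day 1 it was -0.36, -0.30, 0.27 and -0.01, at day 2 it was -0.66, -0.45, -0.73 and -0.33, and at day 5 it was 0.36, 0.61 and 0.04. All day 2 samples lay below all untreated samples, as in 10.2% of features, and below all day 5 samples. Gucy1a1 fell at day 2 by 0.70 ± 0.15 relative to untreated blood (adjusted p = 0.00651), a call kept in all 15 fits that left out 1 sample but lost with technical replicate 1 alone (-0.55, adjusted p = 0.124). At day 1 the difference was -0.26 ± 0.15 (adjusted p = 0.351) and at day 5 it was 0.17 ± 0.17 (adjusted p = 0.634).

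The beta 1 subunit that pairs with it, Gucy1b1, had log2 ratios of 1.46, 1.95, 0.71 and 1.64 at day 1, against 0.25, 0.29, 0.67 and 0.30 in untreated blood. Every day 1 sample exceeded every untreated one, by the narrowest margin in replicate 3. The difference of 1.06 ± 0.32 was not called (adjusted p = 0.0654), and the difference between the 2 subunits in their change was not tested.

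**Figure D3:**
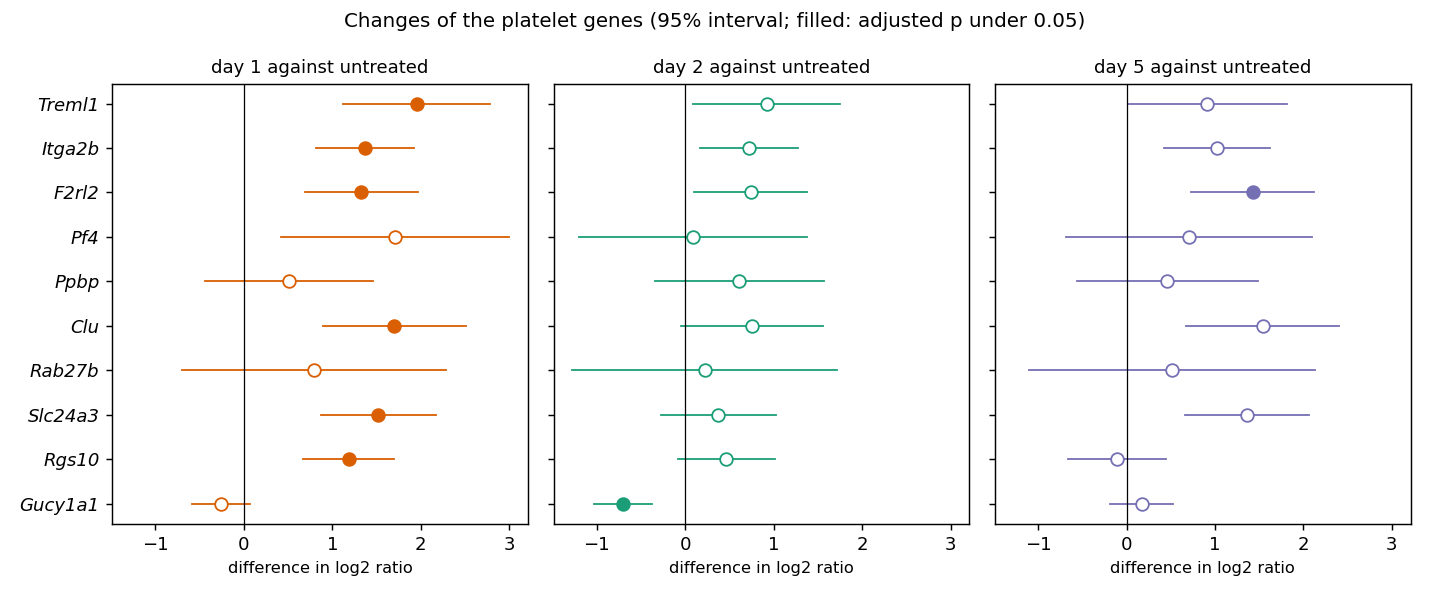
Difference in log2 ratio from untreated blood (horizontal axis) for the 10 genes at day 1, day 2 and day 5, with 95% intervals from limma; filled points have an adjusted p under 0.05. At day 1 the 6 filled points lie between 1.19 and 1.96, and Gucy1a1 is the only filled point at day 2, at -0.70.

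At day 1, 7 of the 10 genes had all samples above all untreated samples, which held for 10.5% of features. At day 5, 4 genes did (Itga2b, F2rl2, Clu and Slc24a3), beside 6.63% of features. In the order of group means, day 1 stood first for Treml1, Itga2b, Pf4, Clu, Rab27b, Slc24a3 and Rgs10, day 5 for F2rl2 and Gucy1a1, and day 2 for Ppbp. Untreated blood stood last for 8 of these genes; the exceptions were Rgs10, lowest at day 5, and Gucy1a1, lowest at day 2. Neighbours in these orders did not differ beyond the test's threshold, except day 5 over day 2 for Slc24a3.

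The day 1 calls depended on single samples and on scaling. Without day 1 replicate 2 the count fell to 0, and without day 1 replicate 1 to 1. Without untreated replicate 4 it fell to 2, and without day 1 replicate 4 to 3. Over all 6515 features, calls fell from 300 to 60, 62, 72 and 62 in these fits, in the same order. The 6 differences stayed between 1.03 and 2.09, and the limma adjusted p did not exceed 0.0903. Quantile normalization left 2 calls (F2rl2 at 0.98 and Slc24a3 at 0.90) and lowered Treml1 to 1.22, Itga2b to 0.58, Rgs10 to 0.43 and Clu to 0.27. It also moved the called features from 149 higher and 151 lower to 182 higher and 280 lower. The F test count of 7 was the same in all 15 fits that left out 1 sample and was 3 after quantile normalization.

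Between day 2 and day 1, 0 of the 10 genes were called in either direction by limma, beside 0.537% of features higher and 0.614% lower. At an unadjusted p under 0.05, 760 features passed. For 9 of the 10 genes, all but Ppbp, the estimate at day 2 was below day 1, with a median of -0.69 against -0.00 over all features. Slc24a3 differed by -1.15 ± 0.31 (adjusted p = 0.0915), Treml1 by -1.04 ± 0.39 (adjusted p = 0.288) and Pf4 by -1.62 ± 0.61 (adjusted p = 0.278). For Treml1, Pf4 and Slc24a3 all day 2 samples lay below all day 1 samples, which held for 4.82% of features. Slc24a3 passed the threshold in 3 of 28 alternatives, and the limma adjusted p ran up to 0.279. Among the 3 was the fit without day 5 replicate 2 (adjusted p = 0.032). That sample is in neither group, and leaving it out kept the difference at -1.15.

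Set against day 1, 1 gene was lower at day 5 and 0 were higher, beside 9.09% of features lower and 9.67% higher. That gene was Rgs10, at -1.30 ± 0.26 (adjusted p = 0.0041), and all 3 day 5 samples lay below all 4 day 1 samples. Treml1 had the same lack of overlap, seen in 16% of features, without a call (-1.04 ± 0.42, adjusted p = 0.0942). The Rgs10 difference was -0.82 with technical replicate 2 alone (adjusted p = 0.115) and -0.65 after quantile normalization (adjusted p = 0.117).

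Day 5 against day 2 gave 2 genes higher and 0 lower, beside 12.8% of features higher and 12.7% lower. Gucy1a1 was higher at day 5 by 0.88 ± 0.17 (adjusted p = 0.00121), called in all 15 fits that left out 1 sample. Slc24a3 was higher by 0.99 ± 0.33 (adjusted p = 0.0385), and this call was lost without day 2 replicate 1 (adjusted p = 0.105), day 2 replicate 3 (0.0697), day 5 replicate 1 (0.133) or day 5 replicate 3 (0.177). Comparisons that share a group of samples are not independent of each other.

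**Figure D4:**
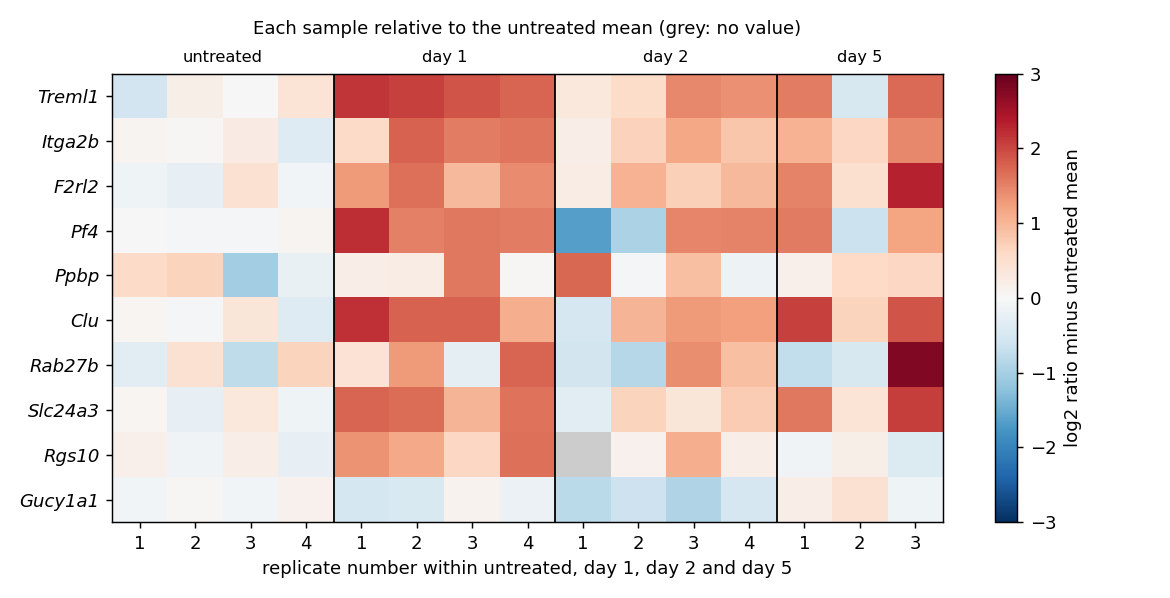
Log2 ratio of each of the 15 samples (columns, by group and replicate number) minus the untreated mean of that gene (colour), for the 10 genes (rows); grey marks a missing value. The day 1 columns are positive in nearly all rows but Gucy1a1. Day 2 replicate 1 and day 5 replicate 2 are paler or bluer than the other columns of their groups in 6 rows each, but not for Ppbp.

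Samples of 1 group differed across several of the genes at once. Day 2 replicate 1 had the lowest value of its group for 6 of the 9 genes with a value there, and it was the sample with the fewest features measured, 5650. Day 5 replicate 2 was lowest of its group for 6 of the 10 genes, and day 5 replicate 3 was highest for 6. Leaving out day 2 replicate 1 and day 5 replicate 2 together, a choice made after seeing the data, gave 5 called genes at day 2 and 5 at day 5, where all 15 samples gave 1 and 1. Of all features, 13.2% and 1.84% were called in that fit. Each of the 2 samples was lowest of its group for 6 of these same genes, so leaving them out raises those group means by construction. The added calls are therefore no evidence of a difference. Without the 2 samples Treml1, Itga2b, F2rl2 and Clu were called higher at day 2, by 1.13, 0.89, 0.91 and 1.18. The cause of these sample differences was not tested.

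As a description of how alike the genes were over the 15 samples, Pearson r with the mean of the other members was 0.883 for Slc24a3, 0.851 for Clu, 0.835 for Itga2b, 0.834 for Treml1, 0.833 for F2rl2 and 0.765 for Pf4. It was 0.489 for Rab27b and, over 14 samples, 0.409 for Rgs10. Ppbp and Gucy1a1 had r of -0.0535 and -0.161. F2rl2 and Slc24a3 were the pair most alike (r = 0.946) and Rgs10 and Gucy1a1 the least (r = -0.481). All points share the 4 group means and a marrow reference taken here as constant.

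The features most like the mean of the 9 members with a value in every sample were ranked by the same measure among 3553 other features named by a gene. They were Gatad1 (r = 0.951), Ipo11 (0.941), H1f2 (0.934), Trappc2 (0.92), Esd (0.911), Itgb1 (0.904), St7 (0.9), Ilk (0.892), Rsu1 (0.892) and Nudt3 (0.89), where the median candidate had r = 0.0127. Itgb1 encodes the beta 1 chain of integrins, and Ilk and Rsu1 encode partners in an integrin-linked adhesion complex. At day 1, the difference from untreated blood was 0.95 ± 0.24 for Itgb1, 0.89 ± 0.19 for Rsu1 and 0.63 ± 0.21 for Ilk. For H1f2, a linker histone, it was 1.66 ± 0.25 at day 1 and 1.46 ± 0.27 at day 5. These genes were picked for their likeness to a mean that separates the groups, so their differences are a description, with no test.

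Of 92 other platelet and megakaryocyte genes in 5 lists that the array carried, 29 could be tested and 18 had no value in any sample. Those without a value included Gp1bb, P2ry12, Cd36 and Ptgir of the surface receptors, F5 and Sparc of the granule contents, Rgs18 of signalling and the megakaryocyte factor Nfe2. Why values are missing is not stated in the sources used here, and a missing value is not a level of 0. Calls of the list genes stand beside the shares of all features called higher and lower. Against untreated blood these were 2.29% and 2.32% at day 1, 4.83% and 7.84% at day 2, and 0.261% and 0.829% at day 5. They were 0.537% and 0.614% for day 2 against day 1. For day 5 they were 9.67% and 9.09% against day 1, and 12.8% and 12.7% against day 2.

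Among 5 tested surface receptors, 2 were higher at day 1 and 0 were lower, beside 2.29% of features higher and 2.32% lower. The median difference was 0.19 against 0.03 over all features. P2rx1, an ATP-gated ion channel, had log2 ratios of 2.59, 3.16, 1.91 and 2.77 at day 1, against 1.03, 0.40, 1.60 and 1.50 in untreated blood, with a difference of 1.48 ± 0.37 (adjusted p = 0.0374). F2rl3, the thrombin receptor PAR4, was at 0.57, 0.60, 0.71 and 0.61, against 0.15, 0.17, 0.13 and -0.22 in untreated blood, with a difference of 0.56 ± 0.12 (adjusted p = 0.0212). For both, no day 1 sample overlapped the untreated ones. P2rx1 was lower at day 5 than at day 1 by -1.24 ± 0.40 (adjusted p = 0.0409). Of 15 fits that left out 1 sample, 8 kept the day 1 call of P2rx1, 10 that of F2rl3 and 9 the day 5 against day 1 call of P2rx1, with adjusted p up to 0.125, 0.0708 and 0.182. After quantile normalization neither P2rx1 difference was called (1.02, adjusted p = 0.0588, and -0.998, adjusted p = 0.0525). The thromboxane receptor Tbxa2r and the inhibitory receptor Sirpa were not called at day 1 (0.19 ± 0.12, adjusted p = 0.375, and -0.46 ± 0.22, adjusted p = 0.243).

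Among 7 tested signalling genes, 2 were higher at day 1 and 0 lower, beside 2.29% of features higher and 2.32% lower. The median difference was 0.40. Prkg1, the cyclic GMP-dependent protein kinase, was higher by 0.61 ± 0.12 at day 1 (adjusted p = 0.0151) and by 0.63 ± 0.12 at day 2 (adjusted p = 0.00252). It was lower at day 5 than at day 1 by -0.49 ± 0.13 (adjusted p = 0.0171) and lower than at day 2 by -0.51 ± 0.13 (adjusted p = 0.00906). Plek, the protein kinase C substrate pleckstrin, was higher at day 1 by 0.86 ± 0.23 (adjusted p = 0.0436). Syk, a tyrosine kinase that leukocytes also use, was higher at day 2 by 0.75 ± 0.15 (adjusted p = 0.00403) and lower at day 5 than at day 2 by -1.02 ± 0.16 (adjusted p = 0.000299). Of the fits that left out 1 sample, 5 of 15 kept the call of Plek (adjusted p up to 0.128), 11 that of Prkg1 at day 1 (up to 0.0585) and 13 that of Prkg1 for day 5 against day 1 (up to 0.0718). After quantile normalization Plek differed by 0.15 (adjusted p = 0.471). The adaptor Lat was not called at day 1 (0.40 ± 0.58, adjusted p = 0.745).

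The 7 tested genes of granule formation and release gave 0 calls at day 1, with a median difference of -0.00, by limma. Syntaxin 11 (Stx11), which serves platelet granule secretion, was the one with the largest difference, 1.08 ± 0.32 (adjusted p = 0.061), and Rab32 differed by -0.42 ± 0.23 (adjusted p = 0.319). Rab38 was higher at day 2 by 0.40 ± 0.09 (adjusted p = 0.00967), and Hps1 was higher at day 5 than at day 2 by 0.72 ± 0.23 (adjusted p = 0.0394). Of the granule contents only F13a1 and Egf were tested. F13a1, the coagulation factor XIII A chain that monocytes also make, was lower at day 2 than in untreated blood by -0.84 ± 0.19 (adjusted p = 0.00786) and than at day 1 by -0.94 ± 0.19 (adjusted p = 0.0339), and was higher at day 5 than at day 2 by 1.19 ± 0.20 (adjusted p = 0.000528). The Hps1 call was kept in 7 of 15 fits that left out 1 sample (adjusted p up to 0.122), and that of F13a1 for day 2 against day 1 in 8 (up to 0.142). Egf differed by 0.33 ± 0.14 at day 1 (adjusted p = 0.191).

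Of 8 tested megakaryocyte factors and cytoskeletal genes, 0 were called at day 1, with a median difference of 0.39, and 6 of the 8 estimates were positive. Flna, the actin cross-linker filamin A, was higher at day 5 than in untreated blood by 0.82 ± 0.18 (adjusted p = 0.0418) and than at day 2 by 0.64 ± 0.18 (adjusted p = 0.0174). Pdlim1, an adaptor on actin fibres, was lower at day 5 than at day 1 by -1.67 ± 0.36 (adjusted p = 0.00595). Vwa5a was lower at day 2 than in untreated blood by -0.70 ± 0.17 (adjusted p = 0.0142) and higher at day 5 than at day 2 by 0.78 ± 0.19 (adjusted p = 0.00633). Flna at day 5 against untreated blood was called in 6 of 15 fits that left out 1 sample (adjusted p up to 0.139) and against day 2 in 14 (up to 0.0827), and Vwa5a at day 2 against untreated blood in 14 (up to 0.0541). Neither Flna difference was called after quantile normalization (0.70, adjusted p = 0.12, and 0.57, adjusted p = 0.0601). Zfpm1, a GATA1 cofactor, and the myosin gene Myh9 were not called at day 1 (0.76 ± 0.36, adjusted p = 0.251, and 0.44 ± 0.21, adjusted p = 0.254).

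**Figure D5:**
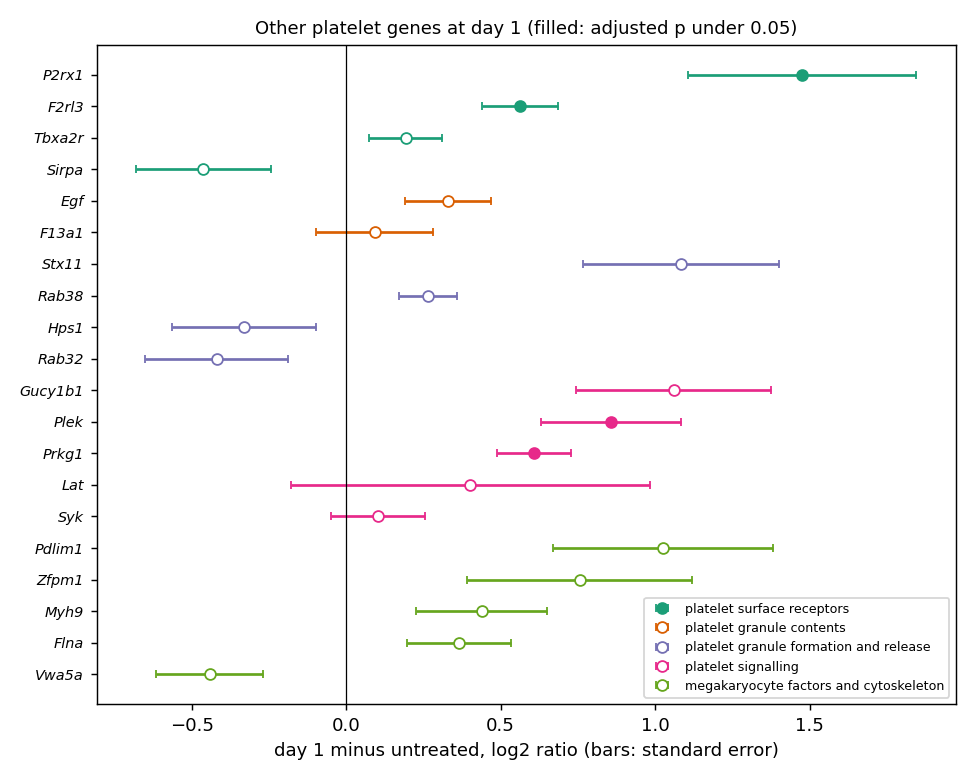
Day 1 minus untreated difference in log2 ratio (horizontal axis) with its standard error for 20 other platelet genes, coloured by list and named as every called gene plus the 2 uncalled genes of each list with the largest day 1 difference; filled points have an adjusted p under 0.05. The 4 filled points are P2rx1, F2rl3, Plek and Prkg1.

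Markers of 9 lists for other cell types were set beside these changes, as sample means over each list. At day 1, the means of 3 stem and progenitor markers (0.02 to 0.19, against -0.65 to -0.27 in untreated samples) and 5 endothelial markers (0.08 to 0.41, against -0.11 to -0.02) lay above all untreated samples. Those of 6 erythroid markers (-1.60 to -1.16, against -1.01 to -0.69) and 6 B cell markers (-0.33 to -0.15, against -0.01 to 0.45) lay below them, and 5 lists overlapped. The markers of a list did not all move alike. The day 1 difference was positive for 2 of 4 tested stem and progenitor, 3 of 6 endothelial, 2 of 8 erythroid and 2 of 7 B cell markers. At day 2, 6 neutrophil markers (0.65 to 1.40, against -0.51 to -0.13) and 5 general leukocyte markers (0.60 to 0.88, against 0.33 to 0.53) lay above, and 3 lists overlapped. The 4 lists below untreated samples at day 2 were the 4 monocyte markers (-0.24 to -0.15, against 0.66 to 1.20), 4 NK and cytotoxic cell markers (0.02 to 0.56, against 0.63 to 0.88), the erythroid markers (-1.85 to -1.30) and the B cell markers (-0.63 to -0.15). At day 5, the erythroid (-0.67 to -0.43) and endothelial (0.09 to 0.22) means lay above all untreated samples, the neutrophil (-1.07 to -0.52), B cell (-0.73 to -0.11) and NK and cytotoxic cell (0.04 to 0.24) means lay below, and 4 lists overlapped. Yet 4 of 7 tested B cell markers had a positive day 5 difference, with a list median of 0.05. So did 7 of 8 erythroid, 6 of 6 endothelial, 1 of 6 neutrophil and 0 of 7 NK and cytotoxic cell markers. These list means cover only markers with values in all samples. On the array, 7 of 11 T cell, 6 of 14 erythroid, 5 of 12 B cell and 4 of 8 progenitor markers had too few values to test. The same held for 4 of 10 markers in each of the leukocyte, neutrophil and endothelial lists. It held for 3 of 10 markers in each of the monocyte and NK and cytotoxic cell lists. Mecom, Pecam1, F13a1 and Lat stand both in one of these lists and in a platelet list. The part of these cell types in the changes of the platelet genes was not tested.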

How the data were processed

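Per the labels' protocols, blood RNA was amplified and carried Cy5 in every column, while the pooled marrow reference carried Cy3. The authors deposited 1 log ratio per probe and column, taken here as log2 of Cy5 over Cy3. Their image analysis, scaling and missing-value rule are not stated in the labels. The values ran from -4.7 to 5.76, beyond the 4.82 that log10 of a 16-bit intensity allows, so base 10 is not possible, while bases 2 and e cannot be told apart. The deposited log2 values are relative within a column, with medians of -0.00276 to 0.0254. The number of arrays limits the precision, and no read depth exists.

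The 30 columns are 15 samples with 2 technical replicates each, which were averaged. Probes were named from the platform annotation (10032 of 13443 had 1 gene symbol, 170 several and 3241 none), and probes of a gene were averaged. Features with at least 3 values in each group of 4 and 2 in the day 5 group were tested with limma (version 3.58.1, under R 4.3.3), fitting each group's mean, and Benjamini-Hochberg adjustment over 6515 features. The labels call samples independently harvested but do not say how many mice each holds, and p-values measure the spread between these samples. The fit was checked on simulated data.

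The 10 genes and all gene lists were chosen with earlier results of these data known, so no p adjusted over the genes alone is given. The text names all 10 genes, of 5 platelet lists each called gene and the 2 uncalled genes per list with the largest day 1 difference, and the 10 features most like the mean of the members. Alternatives changed the technical replicates, scaling, filter, variance prior, weights, groups in the fit, replicate block, probe choice and each sample. Same-numbered samples of different groups correlated above 0.1 in 7 of 21 pairs in their deviations from group means, so the numbers were not taken to pair samples. RefSeq promoter windows of GRCm38.p6 were used for 8 genes.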

Additional observations from a re-analysis of the deposited data

Results flagged for a closer look

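Of 29 groups of 4 samples tested for the 10 genes, 4 held a sample far from the other 3, where its gap to the nearest one exceeded 0.829 of the group's range; chance marks about 1 in 20 groups. Pf4 stood at 4.43 in day 1 replicate 1, against 3.74 to 3.81 in the others. Ppbp stood at 3.70 in day 1 replicate 3, against 2.15 to 2.34. Slc24a3 stood at 2.47 in day 1 replicate 3, against 3.10 to 3.21. Clu stood at 2.82 in day 2 replicate 1, against 4.33 to 4.59.

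Of 51 such groups tested for the named genes of the platelet lists, 3 held a sample far from the others, all among untreated samples. F2rl3 stood at -0.22 in replicate 4, against 0.13 to 0.17. Stx11 stood at 1.52 in replicate 3, against 1.08 to 1.15. Gucy1b1 stood at 0.67 in replicate 3, against 0.25 to 0.30.

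By limma's test of the difference between the days themselves, 3 of the 10 genes differed between days after cyclophosphamide. So did 8 of the 29 tested genes of the platelet lists, where every called gene is named. Over all features, 9.67% were called higher and 9.09% lower at day 5 relative to day 1. At day 5 relative to day 2 these shares were 12.8% and 12.7%, and at day 2 relative to day 1 they were 0.537% and 0.614%. Of the 10 genes, 1 was called at day 5 relative to day 1 and 2 at day 5 relative to day 2. These counts are near the shares over all features and are no result about the 10 genes as a set. Rgs10 was at -1.30 at day 5 relative to day 1. Slc24a3 was at 0.99 and Gucy1a1 at 0.88 at day 5 relative to day 2. In the lists, P2rx1 was at -1.24, Pdlim1 at -1.67 and Prkg1 at -0.49 at day 5 relative to day 1. F13a1 was at -0.94 at day 2 relative to day 1. At day 5 relative to day 2, F13a1 was at 1.19, Hps1 at 0.72, Flna at 0.64, Vwa5a at 0.78, Prkg1 at -0.51 and Syk at -1.02.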

How the results depend on the processing

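For 37 changes of the 10 genes and 41 of other genes named above, values were recomputed under 28 alternatives, 15 of which left out 1 sample. Of these, 1918 kept their direction and their side of the threshold, 168 lost a call, 61 gained one and 16 turned direction, all of the last for changes that were not called. With technical replicate 1 alone, the count of called members was 0 at day 2 and 0 at day 5 relative to untreated blood and 1 for day 5 against day 2, 44 features were called for day 2 against day 1, and Lat at day 1 turned to -0.024. With technical replicate 2 alone, 2 members were called at day 5 and 0 for day 5 against day 1, and Pf4 at day 2 turned to -0.24. With the sample as a random effect over 30 columns, 3 members were called at day 2, 4 at day 5 and 1 for day 2 against day 1, and 715, 407 and 274 features were called at day 1, at day 5 and for day 2 against day 1. After quantile normalization, 2 members were called at day 1, 2 at day 5, 0 for day 5 against day 1 and 3 by the F test, and 462 features were called at day 1 and 111 at day 5. Under quantile normalization Ppbp and F13a1 at day 1 turned to -0.20 and -0.028, and at day 2 Pf4 turned to -0.41, Clu to -0.081, Rab27b to -0.024 and Rgs10 to -0.041. With no filter 0 members were called at day 5; with complete features only, 2 members and 116 features were called at day 5 and 0 members for day 5 against day 1. A robust trended prior gave 0 members at day 5 and 1 for day 5 against day 2. Array weights gave 2 members at day 2, 1 for day 2 against day 1, 903 features at day 1 and 116 for day 2 against day 1. Fits of 2 groups gave 0 members at day 5 and 1 for day 5 against day 2, and 578, 34, 5 and 935 features at day 1, at day 5, for day 2 against day 1 and for day 5 against day 2. Leaving out day 2 replicate 1 and day 5 replicate 2 together, chosen after seeing the data, gave 5 members at day 2 and 5 at day 5. Both samples were low for these same genes, so the added calls are no evidence of a difference. In that fit 860 features were called at day 2, 120 at day 5 and 762 for day 5 against day 1. The causes were not tested.

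With the replicate number as a block, 3 members were called at day 1, 0 at day 5 and 1 for day 5 against day 2, and 107 and 33 features were called at day 1 and for day 2 against day 1. Only 4 of 15 samples correlated best with a sample of their own number, so the samples share only a number.

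Leaving out 1 sample at a time, called members ranged from 0 to 6 at day 1, 1 to 3 at day 2, 0 to 4 at day 5, 0 to 1 for day 2 against day 1, 1 to 3 for day 5 against day 1 and 1 to 3 for day 5 against day 2. Called features ranged over 60 to 438, 529 to 942, 27 to 224, 3 to 94, 718 to 1571 and 1196 to 1856 in the same comparisons. Changes that turned direction ranged from -0.0024 to 0.24 for F13a1 at day 1, from -0.38 to 0.67 for Pf4 and -0.17 to 0.58 for Rab27b at day 2, and from -0.61 to 1.14 for Rab27b and -0.26 to 0.043 for Rgs10 at day 5. With 3 or 4 samples a group and 1 probe a gene, an uncalled difference is not shown to be absent.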
